A study of Mus musculus with 18 samples.

Results

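The 10 genes described here encode enzymes that make, split and use threonine, glycine and serine: *Tdh* and *Gcat* (threonine breakdown), *Gldc* (glycine cleavage), *Phgdh*, *Psat1* and *Psph* (serine synthesis), *Shmt1* and *Shmt2* (exchange of serine and glycine) and *Mthfd2* and *Mthfd1l* (the mitochondrial folate pathway). They were chosen by name, with earlier results of these data known, and they are 10 of the 35773 genes in the count tables. All 10 passed the filter on low counts (10 or more counts in 3 or more samples), as 16901 genes did.

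Bulk polyA RNA-seq was examined in 18 samples of mouse pluripotent stem cells, 3 in each of 6 groups. Naive embryonic stem cells (ESCs) were grown in 2i/LIF, and AFSCs are primed cells derived from blastocysts in N2B27 medium with Activin A and bFGF. Advanced pluripotent stem cells (ASCs) were made by moving AFSCs into ABCL medium, which adds BMP4, LIF and CHIR99021, an activator of Wnt signalling, to N2B27 and Activin A, and ESC-ASCs were made by passaging ESCs in the same medium. Epiblast-like cells (EpiLCs) and epiblast stem cells (EpiSCs), whose media are not given in the sources used here, completed the set. All groups are labelled 129S2/SvPasCrl and wild type, whereas the study's methods describe blastocysts from 129/sv females and reporter males of mixed background, and ASC colonies picked for the GOF-GFP reporter, which is driven by *Oct4* regulatory sequence. The study calls the samples biological replicates, but the labels do not say whether they came from separate cultures or lines, so p-values measure the spread between these samples, which may be technical. Nor do they say whether the AFSC and ESC samples are of the lines that gave the ASC and ESC-ASC samples.

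Threonine dehydrogenase, the product of *Tdh*, oxidises threonine in mitochondria, and GCAT splits the product into glycine and acetyl-CoA. Mouse ESCs are known for their need for threonine and for high *Tdh*. Serine is built from a glycolytic intermediate by PHGDH, PSAT1 and PSPH in turn, and the SHMT enzymes turn it into glycine while loading a carbon unit onto folate, which the mitochondrial enzymes MTHFD2 and MTHFD1L pass on towards formate for nucleotide synthesis and methylation.

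Total counts ranged from 4961934 to 18071600 per sample, and only the 3 ESC-ASC samples were above 9906473. Replicate 1 of ESC, ASC, AFSC and EpiLC stood apart from the other 2 samples of its group and had a larger share of mitochondrially encoded transcripts, 14.4% in AFSC replicate 1 against at most 1.92% in the other AFSC samples. Within ESCs replicate 1 was the lowest sample for 10 of the 10 genes, within ASCs for 9, within AFSCs for 8 and within EpiLCs for 3. In the other 2 groups the numbers were 7 for EpiSCs and 1 for ESC-ASCs. The tests of the 10 genes in the 8 main comparisons and the interaction described below were therefore repeated without those 4 libraries: all 73 calls were also made without them, 7 further calls appeared, and the largest shift of a log2 fold change was 0.29. Replicate 2 was the least like the others in EpiSCs (chi-square per degree of freedom over genes 10.5 and 9.37) and ESC-ASCs (6.49 and 7.56), and was kept. The remaining pair of samples had 1.88 in EpiSCs and 2.37 in ESC-ASCs. For the 4 libraries left out these values were 19.6 to 92.1. The 6 naive marker genes summed to at least 2811 normalised read counts per kb in each ESC, ASC and ESC-ASC sample and to at most 121 in each sample of the other groups, as the labels of naive and primed cells imply. The 6 formative and primed markers summed to 99.2 to 270 in ESC, ASC and ESC-ASC samples. They summed to 1034 to 1112 in EpiLCs, 1126 to 1538 in AFSCs and 2950 to 3165 in EpiSCs. Each had a higher mean in EpiSCs than in AFSCs, and *T* was lower in EpiLCs (5.68) than in ESCs (20.8). Of 3 pluripotency markers, *Sox2* had means of 2331 in ESCs, 565 in AFSCs and 76.2 in EpiSCs. *Pou5f1* and *Nanog* had higher means in EpiSCs than in AFSCs. The 5 trophoblast markers also moved with the division of the naive genes. They summed to 134.7 to 374.0 in ESC, ASC and ESC-ASC samples and 14.7 to 22.4 in the others. Most of the sum in ESC, ASC and ESC-ASC samples came from *Tfap2c*, and *Elf5* had a mean of at most 0.203 in every group. *Cdx2* had means of 95.0 in ESCs and 51.2 in ASCs, 0.367 in ESC-ASCs and 1.72 to 3.65 in the others, and *Hand1* (38.9) and *Gata3* (13.6) were highest in ASCs. The 7 feeder fibroblast markers summed to 17.1 to 126, with *Col3a1*, *Postn* and *Lum* at 0 in every ESC-ASC sample, while *Thy1* was highest there (53.3), *Col1a1* in ASCs (56.4) and *Dcn* in EpiLCs (64.6). The 6 endoderm markers summed to 6.28 to 67.1, with *Ttr* at 0 in every sample of all groups except ESCs, *Sox17* (34.6) and *Gata6* (26.5) highest in EpiSCs and *Amn* highest in ASCs (22.6) and ESC-ASCs (18.4). The part of these other cell types in the results was not tested, and in bulk samples fewer cells of a type and less RNA per cell cannot be told apart.

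Levels below are normalised read counts per kb, that is counts divided by DESeq2 size factors and by the exonic length in kb, and errors of group means are SD (n = 3). A gene was called different between groups at an edgeR quasi-likelihood adjusted p below 0.05 (Benjamini-Hochberg, within each comparison), and log2 fold changes are given with their standard error (SE). The plot of the levels shows all 18 samples for each gene.

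**Figure D1:**
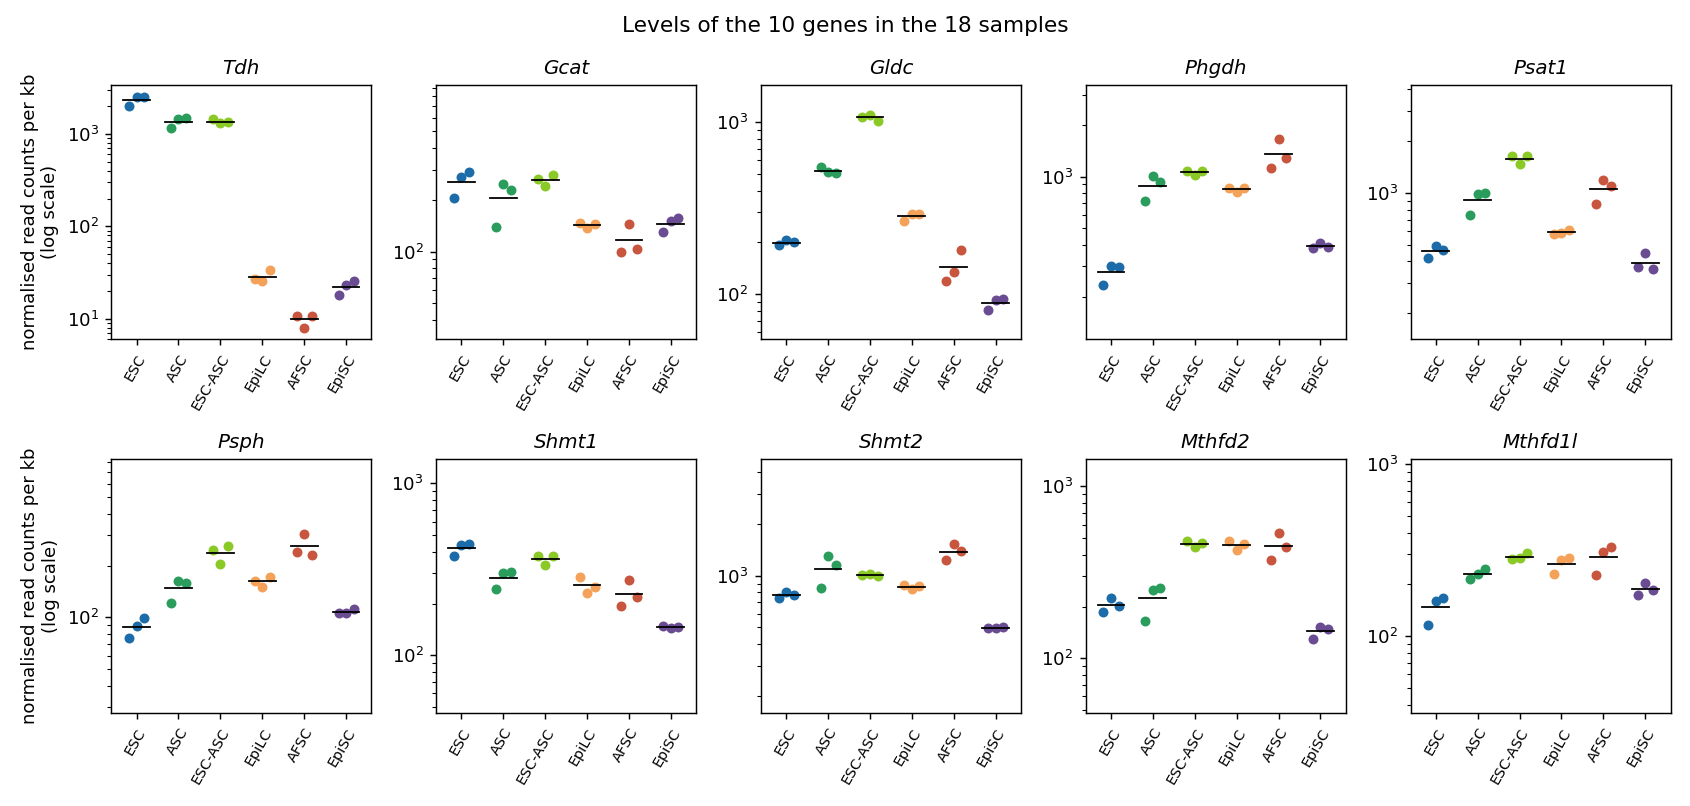
Normalised read counts per kb (log scale) of the 10 genes in each of the 18 samples, by group; points are samples and black lines are group means. *Tdh* lay between 1156 and 2541 in ESC, ASC and ESC-ASC samples and between 7.97 and 33.6 in EpiLC, AFSC and EpiSC samples, whereas most other genes varied much less.

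*Tdh* (ENSMUSG00000021953, GRCm38 chr14:63492347-63509092, minus strand) separated the groups into high and low. In ESCs it was at 2013, 2541 and 2517 normalised read counts per kb, in ASCs at 1156, 1449 and 1480 and in ESC-ASCs at 1441, 1298 and 1347. In EpiLCs it was at 27.0, 25.4 and 33.6, in AFSCs at 10.8, 7.97 and 10.7 and in EpiSCs at 18.1, 23.3 and 25.6. No sample of the first 3 groups overlapped with any sample of the last 3, and the AFSC values rested on 18 to 27 counts per sample.

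The largest difference in *Tdh* was between AFSCs and ESCs, where AFSCs were 239-fold lower (log2 fold change -7.90 ± 0.212 SE, edgeR adjusted p = 1.18e-15). EpiSCs were 105-fold lower than ESCs (-6.72 ± 0.195, edgeR adjusted p = 2.39e-15) and EpiLCs 82.1-fold lower (-6.36 ± 0.191, edgeR adjusted p = 9.92e-15). ASCs were 136-fold higher than AFSCs (7.08 ± 0.207, edgeR adjusted p = 5.35e-15). Both groups in ABCL medium nevertheless lay below ESCs, ASCs by 1.76-fold (edgeR adjusted p = 0.000165) and ESC-ASCs by 1.74-fold (edgeR adjusted p = 0.000114), without overlap of samples. ASCs and ESC-ASCs had nearly equal means, 1361 ± 179 and 1362 ± 72.6, and did not differ by the test (log2 fold change 0.01 ± 0.146, edgeR adjusted p = 0.947). At the low end AFSCs were below EpiSCs (1.18 for EpiSC over AFSC ± 0.213, edgeR adjusted p = 0.0002) and below EpiLCs, while EpiLCs and EpiSCs did not differ by the test (edgeR adjusted p = 0.116).

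Counting did not use strand, and 66 bp of *Tdh* exons, 2.52% of its exonic length, are shared with *Gm17232* on the opposite strand. *Gm17232* was also the gene whose pattern was most like that of *Tdh*, with Pearson r = 0.997 across the 18 samples on the log2 scale, and reads of the overlap cannot be assigned to either gene. The next most alike were *Dlgap3* (r = 0.989), *Piga* (r = 0.988), the lysosomal transcription factor gene *Tfeb* (r = 0.986) and the histone demethylase gene *Kdm3a* (r = 0.986). These correlations are descriptions over samples that fall into 6 groups. In the GENCODE transcripts 10.2% of the 50-base words of *Tdh* also occur in the pseudogene *Gm13929*, and fragments that map to several places were counted at each.

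*Gcat* (ENSMUSG00000006378, chr15:79030874-79043558, plus strand), the partner of *Tdh* in threonine breakdown, varied far less. It was at 205, 271 and 288 in ESCs, at 138, 246 and 227 in ASCs and at 263, 242 and 278 in ESC-ASCs. The values were 146, 137 and 145 in EpiLCs, 99.5, 146 and 103 in AFSCs and 130, 150 and 156 in EpiSCs. ASC replicate 1 lay within the range of the primed groups. The other 8 samples of the first 3 groups lay above all samples of the last 3. In the GENCODE transcripts 10.8% of the 50-base words of *Gcat* also occur in *Galr3*, whose part in the *Gcat* count was not tested.

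*Gcat* was lower than in ESCs in AFSCs (2.20-fold, log2 fold change -1.14 ± 0.192, edgeR adjusted p = 4.41e-05), in EpiLCs (1.78-fold, edgeR adjusted p = 0.00102) and in EpiSCs (1.77-fold, edgeR adjusted p = 0.000936). It was 1.72-fold higher in ASCs than in AFSCs (0.78 ± 0.191, edgeR adjusted p = 0.00154). None of the 3 pairs among ESCs, ASCs and ESC-ASCs passed the test, with edgeR adjusted p from 0.105 to 0.937, and none of the 3 pairs among EpiLCs, AFSCs and EpiSCs did, from 0.208 to 0.979. The order of groups was thus that of *Tdh* in outline, and the correlation of both genes over the 18 samples was r = 0.870.

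A pair of short motifs was searched on both strands of the promoters of the 10 genes, from 250 bases before to 50 bases after the start site (RefSeq, GRCm38.p6). TGATGNAA is the core of the element bound by ATF4, the transcription factor of the amino acid response, and CACGTG is an E-box. *Tdh* had no entry, *Psat1* had 2 and each other gene had 1. TGATGNAA was in none of these promoters, against 3.97% of 32851 promoters of the same length, and CACGTG was in that of *Gcat* alone, against 7.15% of all. The 30 bases around it (chr15:79030864-79030893, plus strand) are shown because it was the only match, with the motif in capitals, its first base being base 3 of the transcript.
*Gcat*: ccctgcccacgtCACGTGacggggagcact
The match is a description of these letters and no measurement of binding.

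*Gldc* (ENSMUSG00000024827, chr19:30098449-30175418, minus strand), the glycine decarboxylase of the glycine cleavage system, was highest in the groups grown in ABCL medium. In ESC-ASCs it was at 1078, 1106 and 1018, in ASCs at 549, 513 and 504 and in ESCs at 193, 206 and 200. In EpiLCs it was at 268, 293 and 293, in AFSCs at 119, 134 and 181 and in EpiSCs at 81.3, 92.1 and 93.5. The samples of no group overlapped with those of another.

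All 15 pairs of groups differed in *Gldc* by the test, so that the order was ESC-ASC, ASC, EpiLC, ESC, AFSC and EpiSC, with a 12-fold range of means. ASCs were 2.58-fold above ESCs (log2 fold change 1.37 ± 0.136, edgeR adjusted p = 1.86e-07) and 3.54-fold above AFSCs (1.82 ± 0.138, edgeR adjusted p = 1.56e-09). ESC-ASCs were 5.32-fold above ESCs (2.41 ± 0.140, edgeR adjusted p = 7.39e-11) and 2.06-fold above ASCs in the same medium (1.05 ± 0.133, edgeR adjusted p = 3.62e-06). The smallest step, AFSCs below ESCs by 1.37-fold (edgeR adjusted p = 0.007), was lost when libraries were scaled by total counts only (edgeR adjusted p = 0.145) or when the 2 groups were fitted alone (edgeR adjusted p = 0.0799).

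The partners of *Gldc* in the glycine cleavage system were named after their values were seen. *Amt*, the aminomethyltransferase, had mean levels of 320 in ESCs, 269 in ASCs, 299.7 in ESC-ASCs and only 19.6 in EpiSCs, where it was lower than in ESCs (log2 fold change -4.05 ± 0.171, edgeR adjusted p = 2.38e-13). Like *Gldc* it was higher in ASCs than in AFSCs (0.64 ± 0.142, edgeR adjusted p = 0.000672), but unlike *Gldc* it was not called in ASCs or ESC-ASCs against ESCs. *Gcsh*, the carrier protein, was lower than in ESCs in ASCs (-0.47 ± 0.144, edgeR adjusted p = 0.0108) and in ESC-ASCs (-0.71 ± 0.143, edgeR adjusted p = 0.000291). *Dld*, the lipoamide dehydrogenase that this system shares with other complexes, was higher in ESC-ASCs than in ESCs (0.72 ± 0.126, edgeR adjusted p = 7.58e-05) and highest in EpiSCs, with a mean of 477.

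*Phgdh* (ENSMUSG00000053398, chr3:98313170-98339990, minus strand), the entry enzyme of serine synthesis, was lowest in naive ESCs, at 234, 301 and 298. It was at 720, 1005 and 934 in ASCs, at 1078, 1016 and 1079 in ESC-ASCs and at 859, 819 and 857 in EpiLCs. AFSCs had 1119, 1649 and 1286 and EpiSCs 386, 412 and 390. ESC samples lay below those of every other group and AFSC samples above them.

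*Phgdh* was 4.86-fold higher in AFSCs than in ESCs (log2 fold change 2.28 ± 0.159, edgeR adjusted p = 3.27e-10), 3.77-fold in ESC-ASCs (1.91 ± 0.157, edgeR adjusted p = 6.23e-09), 3.13-fold in ASCs (1.65 ± 0.156, edgeR adjusted p = 9.87e-08) and 3.04-fold in EpiLCs (1.61 ± 0.156, edgeR adjusted p = 4.93e-08). EpiSCs were 1.41-fold above ESCs (edgeR adjusted p = 0.00897) and 3.45-fold below AFSCs (-1.79 ± 0.155, edgeR adjusted p = 3.2e-08), although both are primed cells. ASCs were 1.55-fold below AFSCs (edgeR adjusted p = 0.00123). ESC-ASCs, ASCs and EpiLCs did not differ from each other by the test, with edgeR adjusted p from 0.0794 to 0.827. The same 50-base words as in *Phgdh* transcripts occur in transcripts of 23 other genes for 47.8% of its words, mostly in *Gm7901*, and since fragments that map to several places were counted at each, its level may hold reads of such copies. Only 3 of these genes had a row here, each sharing 0.616% to 0.986% of the words. Together they had at most 21 counts in any sample, and at most 2.37% of the *Phgdh* count in any sample. *Gm7901*, which shares 38.3% of the words, was not among them, so its part in the *Phgdh* count could not be checked.

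*Psat1* (ENSMUSG00000024640, chr19:15904678-15947337, minus strand), the aminotransferase of the second step, was highest in ESC-ASCs, at 1648, 1471 and 1637. It was at 867, 1196 and 1093 in AFSCs and at 740, 983 and 996 in ASCs, ranges that overlapped. It was at 575, 582 and 610 in EpiLCs, at 417, 490 and 468 in ESCs and at 370, 445 and 362 in EpiSCs, and ESC and EpiSC samples overlapped too. ESC-ASCs were 3.43-fold above ESCs (log2 fold change 1.78 ± 0.154, edgeR adjusted p = 1.29e-08) and 1.76-fold above ASCs (0.82 ± 0.150, edgeR adjusted p = 0.000191). AFSCs were 2.30-fold above ESCs (1.20 ± 0.152, edgeR adjusted p = 1.31e-06) and ASCs 1.95-fold (0.96 ± 0.152, edgeR adjusted p = 4.15e-05). EpiSCs were 2.71-fold below AFSCs (-1.44 ± 0.153, edgeR adjusted p = 4.49e-07). The difference of 1.29-fold between EpiLCs and ESCs (edgeR adjusted p = 0.0459) was lost in 12 of the 18 fits that left out a sample, among them those without any 1 of the EpiLC or ESC samples, and also with total-count scaling, without the low-count filter and without mitochondrially encoded genes, with edgeR adjusted p from 0.0517 to 0.145. It was kept without the 4 libraries (edgeR adjusted p = 0.0233).

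*Psph* (ENSMUSG00000029446, chr5:129765558-129787449, minus strand), the phosphatase of the last step, was less abundant. It was at 240, 305 and 231 in AFSCs, at 248, 203 and 260 in ESC-ASCs and at 163, 150 and 173 in EpiLCs. ASCs had 121, 164 and 159, EpiSCs 106, 106 and 112 and ESCs 76.0, 89.2 and 99.0. Only ESC samples lay below those of all other groups. *Psph* was higher than in ESCs in AFSCs (2.93-fold, log2 fold change 1.55 ± 0.151, edgeR adjusted p = 3.65e-08), ESC-ASCs (2.66-fold, 1.41 ± 0.150, edgeR adjusted p = 1.79e-07), EpiLCs (1.84-fold, edgeR adjusted p = 5.68e-05) and ASCs (1.64-fold, edgeR adjusted p = 0.000642), but not by the test in EpiSCs (0.28 ± 0.150, edgeR adjusted p = 0.12). It shares 452 bp of exon, 10.4% of its exonic length, with *Cct6a* on the other strand, whose counts of 1865 to 10086 per sample exceeded the 167 to 2242 of *Psph*, so part of the *Psph* count may belong to *Cct6a*.

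The 3 genes of serine synthesis thus shared high values in AFSCs and ESC-ASCs and low values in ESCs and EpiSCs. Over the 18 samples *Phgdh* correlated with *Psph* (r = 0.947), *Mthfd1l* (r = 0.919) and *Psat1* (r = 0.829) and hardly with *Shmt1* (r = -0.0033). *Psph* was among the 5 genes most like *Phgdh* of all 16901, the others being *Plk5* (r = 0.957), *Ccdc92b* (r = 0.948), the tight junction gene *Cldn7* (r = 0.948) and *Lars*, the leucyl-tRNA synthetase gene (r = 0.943).

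*Shmt1* (ENSMUSG00000020534, chr11:60788104-60811718, minus strand) and *Shmt2* (ENSMUSG00000025403, chr10:127517123-127522444, minus strand) encode the cytosolic and the mitochondrial form of the same enzyme, and they went in opposite directions between ESCs and AFSCs. *Shmt1* was at 379, 436 and 444 in ESCs, 377, 336 and 376 in ESC-ASCs and 244, 300 and 306 in ASCs. It was at 284, 232 and 250 in EpiLCs, 192, 273 and 220 in AFSCs and 148, 144 and 145 in EpiSCs. ESC samples were above, and EpiSC samples below, those of every other group. *Shmt1* shares 184 bp of exon, 4.74% of its exonic length, with *Smcr8* on the other strand. *Smcr8* had 215 to 609 counts per sample and *Shmt1* 436 to 2913, and part of the *Shmt1* count may belong to *Smcr8*.

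*Shmt2* was at 1230, 1533 and 1386 in AFSCs, 844, 1306 and 1150 in ASCs and 1009, 1024 and 993 in ESC-ASCs. It was at 883, 839 and 873 in EpiLCs, 744, 806 and 772 in ESCs and 496, 498 and 505 in EpiSCs. The ASC samples spread over the ranges of EpiLCs, ESC-ASCs and AFSCs, and EpiSC samples were again the lowest. *Shmt2* shares 30 bp of exon, 1.30% of its exonic length, with *Ndufa4l2* on the other strand, which had 2 to 2014 counts per sample.

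*Shmt1* was lower than in ESCs in EpiSCs (2.91-fold, log2 fold change -1.54 ± 0.139, edgeR adjusted p = 1.14e-08), AFSCs (1.83-fold, edgeR adjusted p = 1.71e-05), EpiLCs (1.64-fold, edgeR adjusted p = 0.00018) and ASCs (1.51-fold, edgeR adjusted p = 0.00141). In ESC-ASCs the difference from ESCs was -0.22 ± 0.134 and missed the threshold (edgeR adjusted p = 0.166), though the samples did not overlap. *Shmt1* was 1.29-fold higher in ESC-ASCs than in ASCs (edgeR adjusted p = 0.0278), a call lost without ASC replicate 1 (edgeR adjusted p = 0.115), without ESC-ASC replicate 1 or 3, and with total-count scaling (edgeR adjusted p = 0.210). *Shmt2* was higher than in ESCs in AFSCs (1.79-fold, 0.84 ± 0.136, edgeR adjusted p = 2.68e-05), ASCs (1.40-fold, edgeR adjusted p = 0.00643) and ESC-ASCs (1.30-fold, edgeR adjusted p = 0.0233) and lower in EpiSCs (1.56-fold, edgeR adjusted p = 0.000439). The ESC-ASC difference was lost without ESC replicate 1 (edgeR adjusted p = 0.0692) or 3 (edgeR adjusted p = 0.0565). ASCs lay 1.28-fold below AFSCs (edgeR adjusted p = 0.0273), a call lost without ASC replicate 1 (edgeR adjusted p = 0.140), without AFSC replicate 2 (edgeR adjusted p = 0.111), without EpiLC replicate 1 (edgeR adjusted p = 0.0535), without ESC-ASC replicate 2 (edgeR adjusted p = 0.0646), with both groups fitted alone (edgeR adjusted p = 0.211), without the low-count filter and with total-count scaling.

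*Mthfd2* (ENSMUSG00000005667, chr6:83305691-83325908, minus strand), the mitochondrial dehydrogenase and cyclohydrolase, had a high and a low set of groups. ESC-ASCs were at 484, 442 and 468, EpiLCs at 483, 426 and 462 and AFSCs at 371, 537 and 447. ASCs were at 165, 250 and 257, ESCs at 186, 223 and 202 and EpiSCs at 129, 153 and 147. All 9 samples of the first set lay above all 9 of the second. No pair within the first set differed by the test, with edgeR adjusted p from 0.889 to 0.964. *Mthfd2* was 2.095-fold higher in ESC-ASCs than in ASCs (log2 fold change 1.07 ± 0.160, edgeR adjusted p = 2.35e-05). It was 2.26-fold higher in ESC-ASCs than in ESCs (1.18 ± 0.161, edgeR adjusted p = 4.37e-06) and 2.06-fold lower in ASCs than in AFSCs (-1.04 ± 0.161, edgeR adjusted p = 1.65e-05), whereas ASCs and ESCs did not differ by the test (0.11 ± 0.161, edgeR adjusted p = 0.592).

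*Mthfd1l* (ENSMUSG00000040675, chr10:3973118-4167081, plus strand), the mitochondrial formyltetrahydrofolate synthetase that releases formate, varied least, with a 1.95-fold range of means. It ranged from 280 to 304 in ESC-ASCs, 227 to 330 in AFSCs and 231 to 285 in EpiLCs. It ranged from 215 to 247 in ASCs, 173 to 205 in EpiSCs and 116 to 167 in ESCs. It was higher than in ESCs in AFSCs (1.94-fold, log2 fold change 0.96 ± 0.158, edgeR adjusted p = 3.37e-05), ESC-ASCs (1.93-fold, edgeR adjusted p = 4.06e-05), EpiLCs (1.78-fold, edgeR adjusted p = 0.000172) and ASCs (1.53-fold, edgeR adjusted p = 0.0036). The 4 groups with the highest means did not differ from each other by the test, with edgeR adjusted p from 0.059 to 0.963. Without the 4 libraries ASCs were called lower than AFSCs (edgeR adjusted p = 0.000713) and than ESC-ASCs (edgeR adjusted p = 0.0133), as they were with replicate number as a block (edgeR adjusted p = 0.0176 and edgeR adjusted p = 0.0189).

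Counted over the list, ASCs against ESCs gave 6 genes higher (*Gldc*, *Phgdh*, *Psat1*, *Psph*, *Shmt2* and *Mthfd1l*) and 2 lower (*Tdh* and *Shmt1*), where 26.4% of all tested genes were called higher and 23.9% lower. The median log2 fold change of the 10 genes was 0.55, against 0.02 over all tested genes. ESC-ASCs against ESCs gave 7 higher and 1 lower, with 30.6% and 29.6% of all genes called and medians of 1.06 and 0.03. EpiLCs against ESCs gave 6 higher and 3 lower (28.7% and 26.6% of all genes, medians 0.44 and 0.06), and AFSCs against ESCs gave 6 higher and 4 lower (29.7% and 30.8%, medians 0.90 and -0.03). In EpiSCs against ESCs only *Phgdh* was called higher and 6 genes were called lower (29.2% and 32%, medians -0.58 and -0.04). These 5 comparisons share the ESC samples and are given side by side. The plot of log2 fold changes shows the value of each gene in each comparison.

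**Figure D2:**
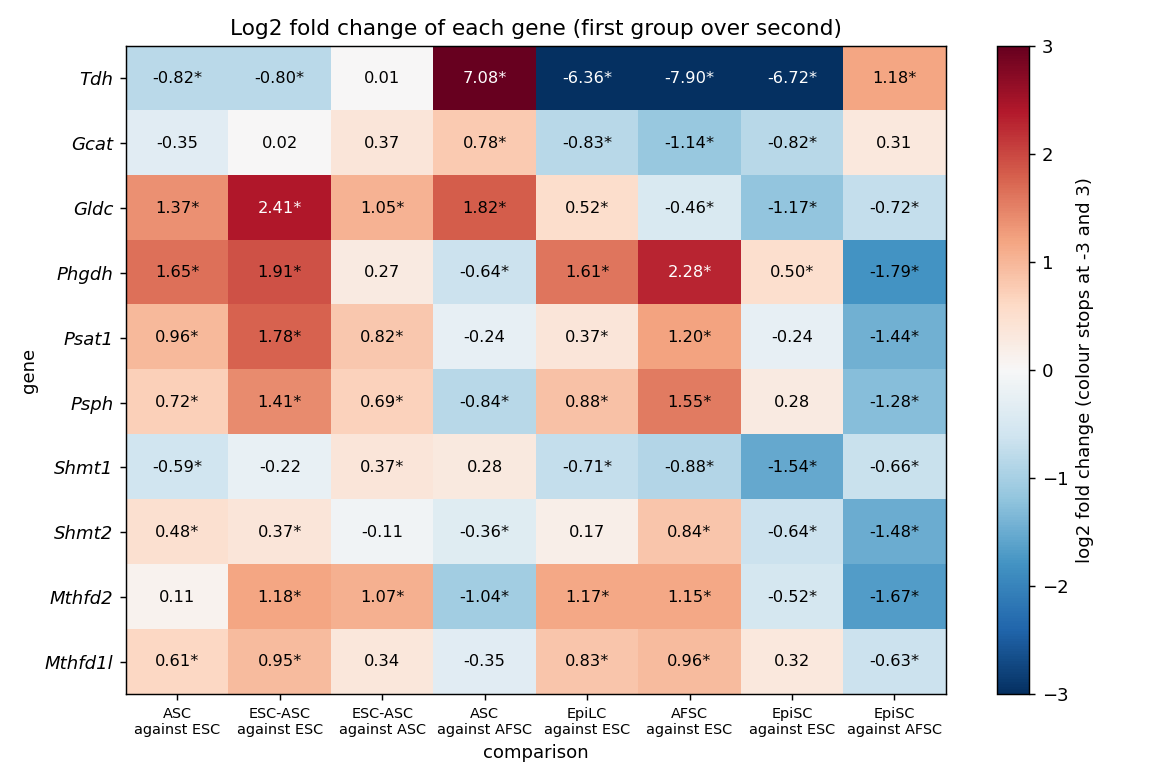
Log2 fold change (first group over second) of the 10 genes in 8 comparisons; colour and number give the value, colour stops at -3 and 3, and a star marks an edgeR adjusted p below 0.05. *Phgdh*, *Psat1* and *Psph* were positive in the ASC, ESC-ASC and AFSC columns against ESC and negative in the column of EpiSC against AFSC, and *Tdh* exceeded the colour range in 4 columns.

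In EpiSCs against AFSCs, both primed cells, 8 of the 10 genes were lower, where 21.6% of all tested genes were called lower, and only *Tdh* was higher, where 17.8% were. *Gcat* was the gene not called (0.31 ± 0.192, edgeR adjusted p = 0.215). The median log2 fold change of the 10 genes was -0.997, against -0.02 over all genes, and 5 genes were lower by more than 1 on the log2 scale: *Phgdh* (-1.79), *Mthfd2* (-1.67), *Shmt2* (-1.48), *Psat1* (-1.44) and *Psph* (-1.28). The counts of these 10 genes made up 0.0739% to 0.0874% of all counts in EpiSC samples and 0.149% to 0.238% in AFSC samples, and the highest shares were in ESC-ASCs, 0.284% to 0.289%.

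In ASCs against AFSCs 3 genes were higher (*Tdh*, *Gldc* and *Gcat*) and 4 lower (*Mthfd2*, *Psph*, *Phgdh* and *Shmt2*), where 32.8% and 31.2% of all genes were called. The median over the 10 genes was -0.29, against 0.02 over all genes. In ESC-ASCs against ASCs, which share the medium, 5 genes were higher (*Mthfd2*, *Gldc*, *Psat1*, *Psph* and *Shmt1*) and none lower, where 23% of all genes were called higher and 27.7% lower, and the medians were 0.37 and -0.05. At an unadjusted p below 0.05 no member was lower there either, and DESeq2 called none lower, but without the 4 libraries *Shmt2* was called lower (-0.30, edgeR adjusted p = 0.00366). With scaling by total counts only, the median over all genes in that comparison moved to -0.19, and in ASCs against ESCs to 0.22.

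The change in ABCL medium was then compared between both starting points, as the difference of the change from ESC to ESC-ASC and the change from AFSC to ASC, which share no samples. This difference is also the sum of AFSCs against ESCs and ESC-ASCs against ASCs, so it contains the difference between the starting groups. For *Tdh* these parts were -7.90 and 0.01, and for *Mthfd2* 1.15 and 1.07. AFSCs and ESCs differed by the test in all 10 genes, where 29.7% of all tested genes were called higher and 30.8% lower in AFSCs. Unlike starting levels and a change in the medium that depends on the start cannot be told apart by it. All 10 genes passed that test of the interaction, 7 with a positive and 3 with a negative difference, where 27.7% and 30.8% of all tested genes did, though the *Shmt1*, *Gcat* and *Gldc* calls were lost under some alternatives. The median difference of the 10 genes was 1.01, against -0.03 over all genes. *Gldc* was the only gene that rose from both starting points. *Phgdh*, *Psph*, *Shmt2* and *Mthfd2* rose from ESCs and fell from AFSCs, *Tdh* fell from ESCs and rose from AFSCs, and each of these pairs of changes passed its own test. For *Shmt2* both calls were near the threshold (edgeR adjusted p = 0.0233 and edgeR adjusted p = 0.0273) and were lost under some alternatives. Starting line, derivation route and sequencing depth differed together between both arms and cannot be told apart.

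**Figure D3:**
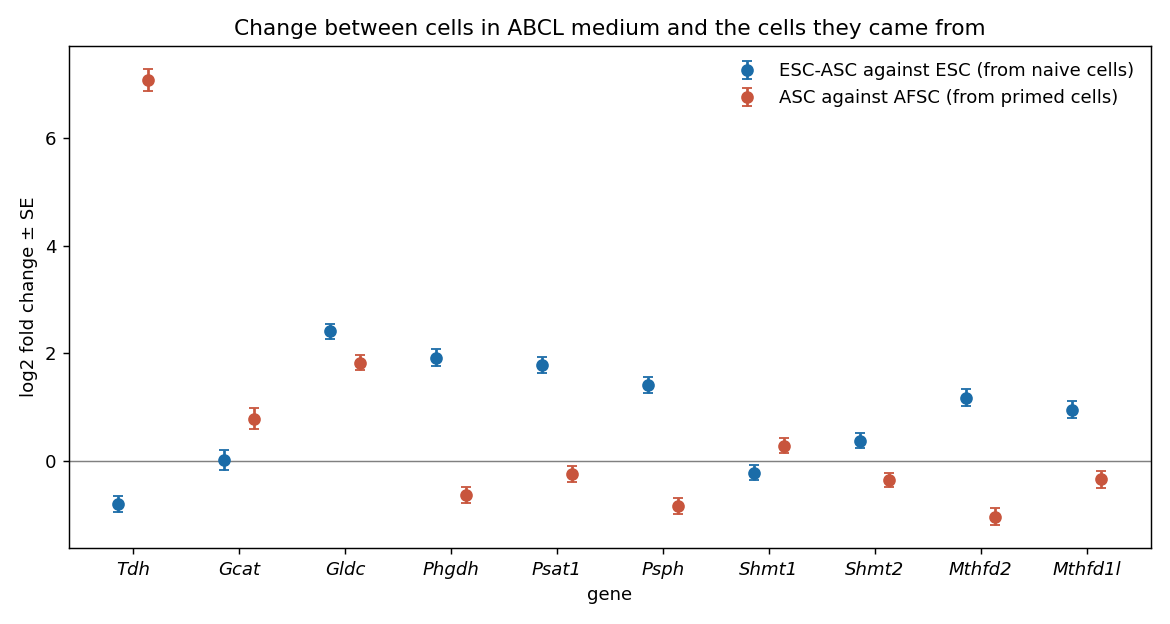
Log2 fold change (± SE) of the 10 genes between cells in ABCL medium and the cell type they were made from. Blue is ESC-ASC against ESC (grown in 2i/LIF) and red is ASC against AFSC (grown with Activin A and bFGF). *Gldc* lay above 0 in both (2.41 and 1.82), *Mthfd2* on opposite sides (1.18 and -1.04), and *Tdh* spanned the largest distance (-0.80 and 7.08).

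Ratios of genes within a sample do not depend on the scaling of libraries, and 4 were computed on the per kb scale. With 3 samples against 3, the exact two-sided permutation test cannot give less than p = 0.1, which all 4 ratios reached, without overlap, between ESCs and each of the 5 other groups and between ASCs and AFSCs. *Gcat* to *Tdh* reached it for all 15 pairs of groups, whereas *Mthfd1l* to *Mthfd1* overlapped between ESC-ASCs and ASCs (p = 0.8, exact permutation test). The log2 ratio of *Gcat* to *Tdh* was -3.22 ± 0.0864 in ESCs, -2.78 ± 0.259 in ASCs and -2.39 ± 0.0938 in ESC-ASCs, so that *Tdh* was the more abundant there. It was 2.33 ± 0.186 in EpiLCs, 3.55 ± 0.555 in AFSCs and 2.71 ± 0.118 in EpiSCs, where *Gcat* was.

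The log2 ratio of *Gldc* to *Tdh* was -3.56 ± 0.148 in ESCs, -1.38 ± 0.263 in ASCs and -0.35 ± 0.104 in ESC-ASCs, and positive in the other 3 groups. The log2 ratio of the mitochondrial *Shmt2* to the cytosolic *Shmt1* was 0.89 ± 0.0884 in ESCs, the lowest value, and 2.61 ± 0.102 in AFSCs, the highest. It was 1.94 ± 0.167 in ASCs and 1.48 ± 0.114 in ESC-ASCs, so both groups in ABCL lay between ESCs and AFSCs, as did EpiLCs (1.77) and EpiSCs (1.78). *Mthfd1*, whose cytosolic enzyme carries out the synthetase step of MTHFD1L among others, was more abundant than *Mthfd1l* in every sample. The log2 ratio of *Mthfd1l* to *Mthfd1* was -2.33 ± 0.0483 in ESCs, -1.51 ± 0.125 in ASCs and -1.55 ± 0.0587 in ESC-ASCs. It was -1.78 ± 0.241 in AFSCs, -2.81 ± 0.101 in EpiSCs and -1.42 ± 0.230, the highest mean, in EpiLCs.

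**Figure D4:**
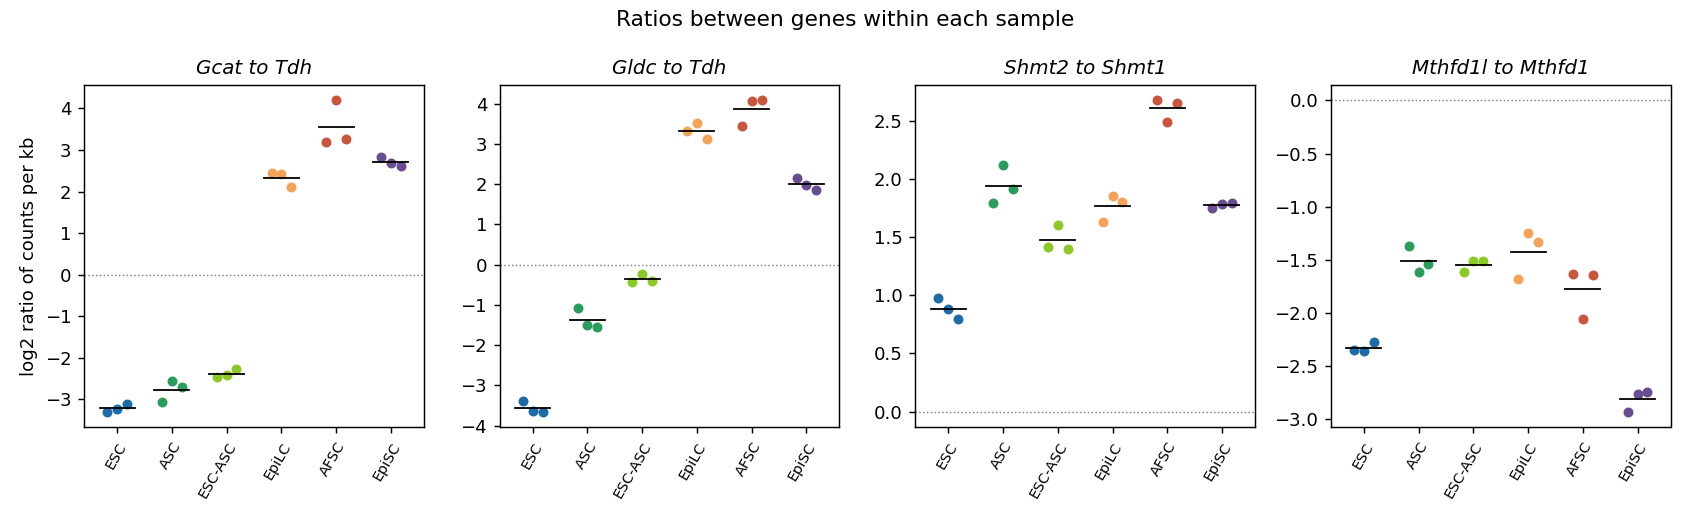
Log2 ratio of the counts per kb of 2 genes within each of the 18 samples, by group; points are samples, black lines are group means and the dotted line is equality. *Gcat* to *Tdh* was below -2 in all ESC, ASC and ESC-ASC samples and above 2 in all others, and *Shmt2* to *Shmt1* averaged 0.89 in ESCs and 2.61 in AFSCs.

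Among the 7 other pairs of groups, the members called in either direction were 6 of 10 for ASC and EpiLC (59.8% of all tested genes), 9 for ASC and EpiSC (66.5%), 6 for EpiLC and AFSC (47.1%), 8 for EpiLC and EpiSC (48.6%), 6 for EpiLC and ESC-ASC (64.1%), 7 for AFSC and ESC-ASC (69%) and 10 for EpiSC and ESC-ASC (72.2%). In the last pair all 10 genes were lower in EpiSCs, *Gldc* by 12.01-fold (edgeR adjusted p = 1.86e-13) and *Psat1* by 4.04-fold (edgeR adjusted p = 1.1e-09).

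The 6 lists of neighbouring genes were counted beside these enzymes. Of 11 tested carriers of serine, glycine and threonine, 8 were higher and 2 lower in ASCs than in ESCs (26.4% and 23.9% of all tested genes), with a median log2 fold change of 1.29, and in ESC-ASCs 8 were higher and 1 lower (30.6% and 29.6% of all), with a median of 0.84. In EpiLCs and in AFSCs against ESCs 8 were likewise higher and 1 lower, with medians of 0.77 and 0.98. Of all tested genes 28.7% were higher and 26.6% lower in EpiLCs, and 29.7% and 30.8% in AFSCs. *Slc1a4*, the neutral amino acid exchanger, was higher in ASCs than in ESCs (2.26 ± 0.255, edgeR adjusted p = 8.67e-07), as were the glutamine and serine carrier *Slc38a1* (2.25 ± 0.230, edgeR adjusted p = 2.47e-07), the mitochondrial serine carrier *Sfxn1* (1.64 ± 0.115, edgeR adjusted p = 2.2e-09), the glycine transporter *Slc6a9* (1.29 ± 0.275, edgeR adjusted p = 0.000786) and *Slc38a4* (1.20 ± 0.242, edgeR adjusted p = 0.000453). All 5 were also higher in ESC-ASCs than in ESCs, by 0.84 to 2.08. Against AFSCs, ASCs had 3 carriers higher, among them *Slc38a4* (1.66 ± 0.245, edgeR adjusted p = 9.56e-06), and 5 lower, among them *Slc6a9* (-1.62 ± 0.233, edgeR adjusted p = 7.4e-06). Of all tested genes 32.8% were higher and 31.2% lower there. The plot of the lists gives these counts.

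**Figure D5:**
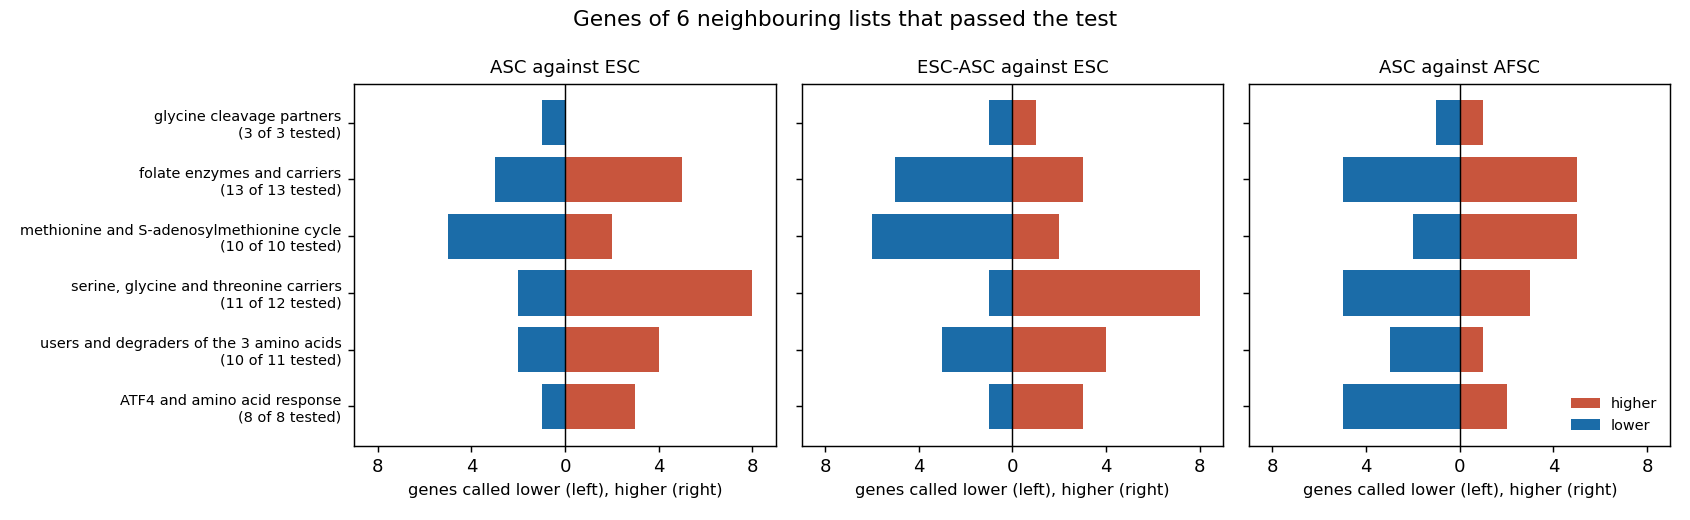
Number of genes called higher (red, right) and lower (blue, left) at an edgeR adjusted p below 0.05 in 6 lists of neighbouring genes, for 3 comparisons. The carriers had 8 higher genes in both comparisons with ESCs and 3 higher and 5 lower in ASC against AFSC. Of all tested genes 26.4% (ASC) and 30.6% (ESC-ASC) were higher against ESC, and 32.8% were higher and 31.2% lower in ASC against AFSC.

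Of 13 folate enzymes and carriers, 5 were higher and 3 lower in ASCs than in ESCs (median -0.09), and 3 were higher and 5 lower in ESC-ASCs than in ESCs (median -0.17), beside 26.4% higher and 23.9% lower of all genes in the first comparison and 30.6% and 29.6% in the second. *Aldh1l2*, which oxidises mitochondrial formyltetrahydrofolate, was higher in both (1.44 ± 0.196 and 2.37 ± 0.190), from a mean of only 6.21 normalised read counts per kb in ESCs. The folate receptor *Folr1* and the carrier *Slc46a1* were higher than in ESCs in ASCs (0.79 and 0.74) and lower in ESC-ASCs (-1.40 and -1.09). *Mthfd2l*, the paralogue of *Mthfd2*, was lower in ASCs than in AFSCs (-2.15 ± 0.246, edgeR adjusted p = 4.2e-07). ASCs against AFSCs had 5 genes of this list higher and 5 lower, where 32.8% and 31.2% of all genes were called.

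Of 10 genes of the methionine and S-adenosylmethionine cycle, 2 were higher and 5 lower in ASCs than in ESCs (median -0.58), and 2 higher and 6 lower in ESC-ASCs (median -0.62). Of all genes 26.4% were called higher and 23.9% lower in the first comparison, and 30.6% and 29.6% in the second. *Bhmt*, which methylates homocysteine from betaine, had means of 55.8 in ESCs, 6.96 in ASCs and 1.67 in ESC-ASCs and no count in any EpiLC, AFSC or EpiSC sample. It was lower in ASCs than in ESCs (-3.01 ± 0.239, edgeR adjusted p = 3.73e-07). *Mat2a*, the S-adenosylmethionine synthetase, was lower in ESC-ASCs than in ESCs (-2.01 ± 0.302, edgeR adjusted p = 1.53e-05), as was the methionine synthase *Mtr* (-1.02 ± 0.244, edgeR adjusted p = 0.00139). *Ahcyl1* (1.59 ± 0.135, edgeR adjusted p = 1.01e-08) and *Gnmt*, which methylates glycine (2.90 ± 0.470, edgeR adjusted p = 3.07e-05, on 2 to 82 counts per sample), were higher. In ASCs against AFSCs 5 genes of the cycle were higher and 2 lower, where 32.8% and 31.2% of all genes were called.

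Of 10 tested users and degraders of the amino acids, 4 were higher and 2 lower in ASCs than in ESCs (median 0.20), 4 higher and 3 lower in ESC-ASCs than in ESCs (median -0.03) and 1 higher and 3 lower in ASCs than in AFSCs. Of all genes 26.4% were higher and 23.9% lower in the first of these comparisons, 30.6% and 29.6% in the second and 32.8% and 31.2% in the third. *Gars* and *Sars*, the glycyl- and seryl-tRNA synthetases, were higher in ESC-ASCs than in ESCs (1.26 ± 0.148 and 1.18 ± 0.168). The enzymes of creatine synthesis went apart: *Gatm* was higher in ESC-ASCs than in ESCs (2.98 ± 0.393, on 1 to 167 counts per sample) and *Gamt* lower (-1.45 ± 0.265). *Sdsl*, the serine dehydratase-like gene, had at most 35 counts in a sample and was lower in ASCs than in AFSCs (-3.41 ± 0.630, edgeR adjusted p = 0.000118).

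Of 8 genes of ATF4 and the amino acid response, 3 were higher and 1 lower in ASCs and likewise in ESC-ASCs against ESCs, 2 were higher and 5 lower in ASCs against AFSCs, and 7 were higher and 1 lower in AFSCs against ESCs, where 29.7% of all genes were higher and 30.8% lower. The shares of all genes in the other 3 comparisons were 26.4% and 23.9%, 30.6% and 29.6%, and 32.8% and 31.2%. In EpiSCs against AFSCs, where the serine synthesis genes were lower, 7 of the 8 were lower (21.6% of all genes, median -1.59), including *Trib3* (-5.08 ± 0.225, edgeR adjusted p = 4.26e-12), *Chac1* (-3.71 ± 0.271, edgeR adjusted p = 2.89e-09) and *Asns* (-1.83 ± 0.173, edgeR adjusted p = 9.12e-08), whereas *Atf4* itself was not called (-0.33 ± 0.200, edgeR adjusted p = 0.213). *Asns* and *Atf4* were named after their values were seen. *Asns* was the gene lower in AFSCs than in ESCs (-1.23 ± 0.168, edgeR adjusted p = 3.4e-06), where the serine synthesis genes were higher. It was also lower in EpiLCs than in ESCs (-2.32 ± 0.174, edgeR adjusted p = 1.39e-09) and was not called in ESC-ASCs against ESCs (0.01 ± 0.166). In ESC-ASCs against ESCs *Ddit3* was the largest change (2.22 ± 0.194, edgeR adjusted p = 1.41e-08), followed by the proline synthesis genes *Aldh18a1* (1.46 ± 0.131, edgeR adjusted p = 2.08e-08) and *Pycr1* (1.20 ± 0.154, edgeR adjusted p = 1.86e-06).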

How the data were processed

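Per the file headers and the study's methods, the authors aligned paired-end reads to mouse GRCm38/mm10 with TopHat2 and made the deposited counts with featureCounts 1.5.0-p1 on exons of Ensembl 86, without strand and counting multi-mapping fragments and fragments that overlap several genes by at least 10 bases. All 18 samples were used, grouped by their labels. The 10 genes and the gene lists were chosen with earlier results of these data known. Genes with 10 or more counts in 3 or more samples were fitted together with edgeR 4.0.16 (TMM, robust quasi-likelihood, R 4.3.3), with Benjamini-Hochberg adjustment over all 16901 genes of a comparison. For levels, counts were scaled by the size factors of DESeq2 1.42.0 and by exonic kb, and correlations used log2(level + 0.1). Ratios were compared by exact permutation. From each list, up to 5 genes with an adjusted p below 0.05 and a log2 fold change beyond 1 in ASC against ESC, ESC-ASC against ESC or ASC against AFSC were named. A gene that this rule selects is not reported here. The fit was tested on simulated counts with equal spread for all genes and samples and changes in ASCs only. These do not imitate the libraries that stood apart. Promoters came from RefSeq and gene models from GENCODE. Alternatives were other scaling, tests and filters, the compared groups alone, a replicate block and leaving out each sample. Leaving out 4 libraries together and leaving out mitochondrially encoded genes were chosen after seeing the data. The AFSC and ASC files carry other cell names than the labels, which were followed.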

Additional observations from a re-analysis of the deposited data

Results flagged for a closer look

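For all 10 genes the change in ABCL medium differed between both starting points by the test of the difference itself (edgeR, change from ESC to ESC-ASC minus change from AFSC to ASC, log2, 3 samples per group). Of all tested genes 27.7% passed that test with a positive and 30.8% with a negative difference. The interaction contains the difference between AFSCs and ESCs, the starting groups, which were grown in different media. That difference passed its own test for all 10 genes, where 29.7% of all tested genes were called higher and 30.8% lower in AFSCs. *Tdh* had a difference of -7.88 ± 0.252 SE (changes of -0.80 and 7.08, edgeR adjusted p = 1.65e-14). *Phgdh* had 2.55 ± 0.217 (1.91 and -0.64, edgeR adjusted p = 7.67e-09), *Psph* 2.24 ± 0.209 (1.41 and -0.84, edgeR adjusted p = 2.68e-08) and *Psat1* 2.02 ± 0.214 (1.78 and -0.24, edgeR adjusted p = 1.53e-07). *Mthfd2* had 2.22 ± 0.228 (1.18 and -1.04, edgeR adjusted p = 1.01e-07), *Mthfd1l* 1.29 ± 0.221 (0.95 and -0.35, edgeR adjusted p = 5.7e-05) and *Shmt2* 0.73 ± 0.191 (0.37 and -0.36, edgeR adjusted p = 0.00298). The 3 smallest in certainty were *Gldc* with 0.59 ± 0.190 (2.41 and 1.82, edgeR adjusted p = 0.0123), *Gcat* with -0.76 ± 0.267 (0.02 and 0.78, edgeR adjusted p = 0.0195) and *Shmt1* with -0.50 ± 0.191 (-0.22 and 0.28, edgeR adjusted p = 0.0304). *Gldc* lost the threshold without AFSC replicate 3 (0.40, edgeR adjusted p = 0.0512). *Gcat* lost it without ASC replicate 2 or 3, AFSC replicate 3 or ESC replicate 3, with edgeR adjusted p from 0.0501 to 0.0616. *Shmt1* lost it in 7 of the fits that left out a sample, with edgeR adjusted p from 0.0591 to 0.0759, and also without the low-count filter (edgeR adjusted p = 0.0972), with the compared groups alone (edgeR adjusted p = 0.0662) and with total counts only (edgeR adjusted p = 0.0508).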

How the results depend on the processing

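Of 90 fold changes of the 10 genes (8 comparisons and the interaction), DESeq2 size factors kept direction and side of the threshold for 90, the DESeq2 test for 89, leaving out mitochondrially encoded genes for 88, no low-count filter for 87, the replicate block for 86, the compared groups alone for 85, total counts only for 84 and leaving out 4 libraries for 81. Of 1620 values with a sample left out, 1568 did, 34 lost and 11 gained the threshold and 7 changed sign. Without the 4 libraries the genes called lower were 2 in ESC-ASC against ESC and 1 in ESC-ASC against ASC. The members called higher in EpiSC against ESC ranged from 1 to 2 and those with a negative interaction from 1 (without ASC replicate 2) to 3 with a sample left out. Signs changed only for values near 0 that were not called, and the cause was not tested. *Gcat* in ESC-ASC against ESC was -0.00633 with the compared groups alone, -0.107 without the 4 libraries and -0.124 to 0.117 with a sample left out. *Tdh* in ESC-ASC against ASC was -0.126 with total counts, -0.118 without the 4 libraries, -0.000379 without mitochondrially encoded genes and -0.0938 to 0.0769 with a sample left out. *Mthfd2* in ASC against ESC ranged from -0.00131 to 0.289 and *Shmt2* in ESC-ASC against ASC from -0.272 to 0.0214. *Mthfd2* in EpiSC against ESC lost its call without EpiSC replicate 1 (-0.44, edgeR adjusted p = 0.0506). With total counts only, the share of calls that were higher moved from 52.5% to 68.1% in ASC against ESC and from 45.4% to 33.8% in ESC-ASC against ASC. With replicate number as a block, 2 genes were called higher in EpiSC against ESC and *Mthfd1l* differed in 11 of the 15 pairs of groups instead of 7. Shared numbers were not taken to pair the samples: the mean correlation of deviations was 0.0538 (-0.114 to 0.332) over 45 pairs that share a number and -0.0259 over 90 that do not, and 6 of 18 samples correlated best with their own number. With 3 samples per group small differences could not be resolved, and *Tdh* in AFSCs rested on 18 to 27 counts.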
